A study of Homo sapiens with 6 samples.

Results

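WNT ligands, their Frizzled and other receptors, the genes that secrete the ligands and the secreted WNT inhibitors were followed in MOC2, a cell line from a mouse oral squamous carcinoma. The members were taken by a rule on gene symbols, chosen with earlier results of these data known. They number 49 of the 21872 rows of the deposited count table. They comprise 19 WNT ligands, 10 Frizzled receptors, 5 co-receptors and other WNT receptors (Lrp5, Lrp6, Ror1, Ror2 and Ryk), 2 genes of WNT secretion (Porcn and Wls), 4 R-spondins and 9 secreted inhibitors. The tested libraries are 3 of MOC2 cells with the genotype Knockout, in which CRISPR/Cas9 was directed at the gene for HuR, and they are set against 3 control libraries of MOC2 cells. HuR is encoded by Elavl1 and binds AU-rich stretches of mRNAs. Cells of both groups received lentiviral particles at an MOI of 25 for 18 h, with control or HuR CRISPR/Cas9, and were then kept for 72 h in medium with serum. A single clone was isolated for the loss of HuR, and no source gives more than 1 clone for the 3 knockout libraries. The p-values therefore measure only how far these libraries spread, and the clone and the loss of HuR cannot be told apart. This spread was larger than counting error alone gives. Chi-square over its degrees of freedom was 35.8 to 186 between knockout libraries and 8.96 to 18.5 between control libraries. Whether the spread beyond counting error is technical was not tested. The titles call the same libraries knockdown, and the labels give human as the species although the symbols and the series title are those of mouse.

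WNT proteins are secreted, lipid-modified signals. Porcn attaches the lipid in the endoplasmic reticulum and Wls carries the modified ligand to the cell surface. A ligand bound to a Frizzled receptor together with Lrp5 or Lrp6 stabilises beta-catenin, which then acts with TCF/LEF factors on target genes, while Ror1, Ror2 and Ryk receive WNT signals by other routes. Sfrp proteins and Wif1 bind the ligands, and Dkk1 blocks Lrp5 and Lrp6. R-spondins strengthen the signal by protecting the receptors from turnover. In stratified epithelia the pathway is known for its part in stem cell maintenance and in the growth of hair and teeth.

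Library totals lay between 16164136 and 21294330 counts as deposited. Levels are given as CPM, counts scaled to a library's TMM-scaled total. Log2 CPM correlated across genes at 0.987 to 0.992 between control libraries and at 0.978 between knockout libraries 1 and 2, while knockout library 3 correlated with them at 0.924 and 0.931, so that it stands apart. Elavl1 mRNA had 116, 114 and 105 CPM in knockout and 107, 120 and 117 CPM in control (adjusted p = 0.82); an edited gene can keep its mRNA, so this level does not check the labels. The 12 epithelial and keratinocyte markers summed to 5940.1 to 8713 CPM in knockout and 11529 to 14114 CPM in control, and of the 11 tested 6 were lower and 2 higher in knockout. The epithelial adhesion gene Cdh1 was at 66.6, 30.7 and 36.7 CPM in knockout and 684, 557 and 556 CPM in control, and Epcam was at 55.1, 25.3 and 30.4 CPM in knockout and 619.5, 504 and 501 CPM in control. The basal keratinocyte markers Krt5, Krt15 and Trp63 reached at most 1.03 CPM in control. Krt15 was at 25.2, 25.4 and 77.3 CPM and Trp63 at 1.53, 4.51 and 15.8 CPM in knockout. Krt5 had 2.29, 0.49 and 0.184 CPM in knockout. The basal marker Krt14 went the other way, at 227, 52.6 and 19.2 CPM in knockout and 589, 431 and 338 CPM in control. The 12 fibroblast markers summed to 409 to 429.9 CPM in knockout and 3.83 to 8.8 CPM in control. Nearly all of the knockout sum came from Col1a1, Col3a1 and Pdgfrb, while Lum was at 0 in every library and Col1a2, Dcn, Postn, Thy1, Fap, Pdpn and Acta2 stayed under 1 CPM. All 6 endothelial and all 6 leukocyte markers stayed under 1 CPM, and the 4 neural markers summed to 7.9 to 51.3 CPM in knockout and 44.8 to 53.6 CPM in control. The part of these marker differences in the WNT results was not tested. In bulk RNA, fewer cells of a type and less RNA per cell cannot be told apart.

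The WNT ligand repertoire differed between the groups. Wnt7a and Wnt7b, which are closely related, were the ligands that fell most, and Wnt9a and Wnt5a fell too. Wnt4, at a few CPM in control, and Wnt6, under 1 CPM in control, rose by over an order of magnitude, and Wnt10b and Wnt10a rose less. Both secretion genes, 3 Frizzleds, Lrp5 and Ror2 were higher in knockout, and no receptor passed as lower by edgeR or DESeq2, although Ror1 was lower at an unadjusted p of 0.037 by edgeR. Of the 49 members, 10 had no count in any library, 12 had too few counts to test and 27 were tested. Of these 27, 11 were higher, 4 were lower and 12 did not pass (adjusted p under 0.05 by edgeR's quasi-likelihood test, adjusted over 12293 genes). That is 55.6% of the members tested, against 35.7% of all genes tested; 20.3% of all genes were called higher and 15.4% lower. At least 2-fold changes were called for 13 members, where 22.7% of all genes reached this. The median log2 fold change of knockout over control was 0.65 over the 27 members and 0.03 over all genes. Knockout and control libraries did not overlap in CPM for 19 of the 27 members, or 70.4%, against 57.6% of all genes. Wnt6 and Wnt5b entered the test only through their knockout counts and Ror1 only through its control counts, so these numbers describe the members that could be tested. Without knockout library 3, 13 members were higher and 4 lower. Without control library 2 or control library 3, 6 were higher and 3 lower.

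**Figure D1:**
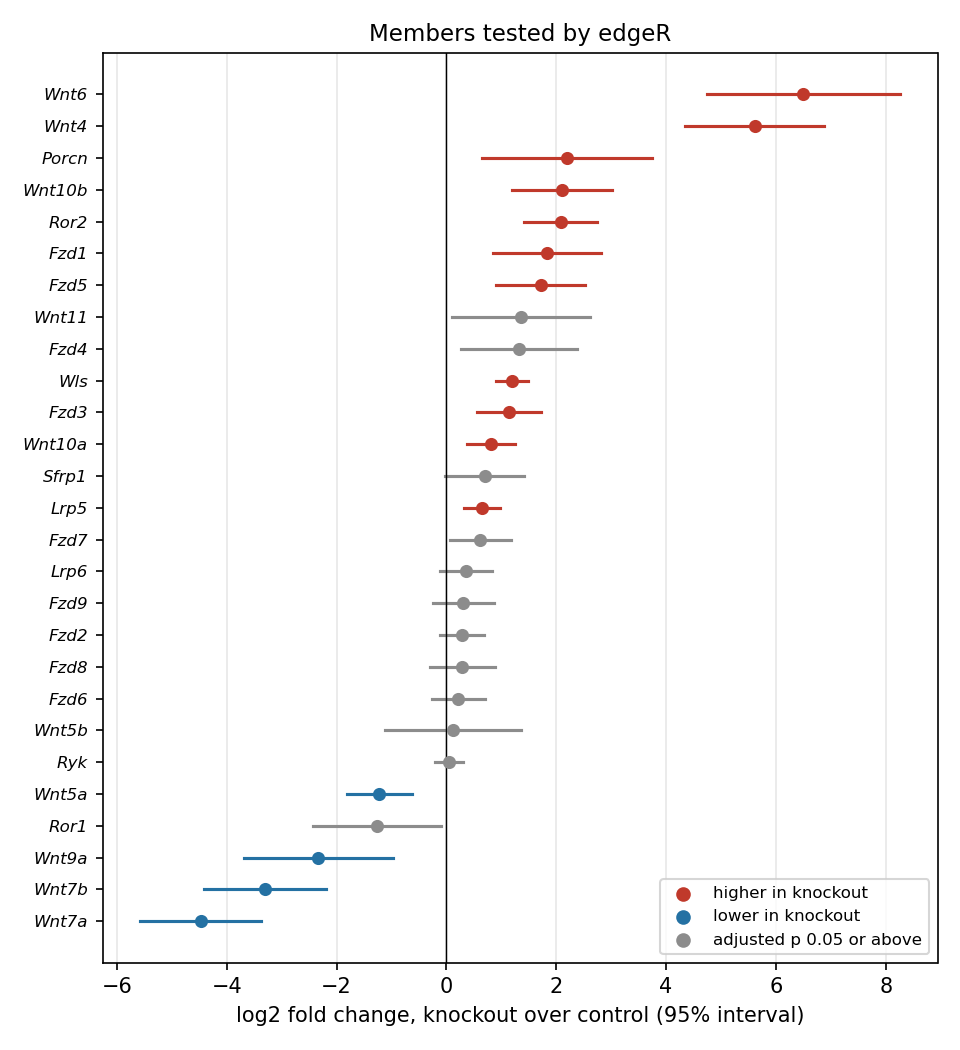
Log2 fold change of knockout over control (x axis) with its 95% interval for the 27 members tested, ordered by size. Red marks the 11 members higher in knockout, blue the 4 lower and grey the 12 that did not pass; Wnt6 (6.49) and Wnt4 (5.61) lie at the top and Wnt7a (-4.47) at the bottom.

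Wnt7b, a ligand known from lung and brain vessel development, had 72.5, 23.5 and 28.1 CPM in knockout libraries 1, 2 and 3, against 466, 389 and 373 CPM in control libraries 1, 2 and 3. All knockout libraries lay far below every control library. The fall was 9.89-fold (log2 fold change -3.31, SE 0.462, adjusted p = 0.00293), and 15.9-fold without knockout library 1, the highest of its group. Wnt7a, which patterns the limb and the female reproductive tract, was at 6.76, 1.86 and 4.41 CPM in knockout, against 111, 92.5 and 84.4 CPM in control. It fell 22.1-fold (log2 fold change -4.47, SE 0.458, adjusted p = 0.00107), and knockout library 2 was the lowest for both genes.

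Wnt9a, known from joint formation, had 1.8, 0.882 and 3.74 CPM in knockout and 15.5, 9.23 and 7.41 CPM in control. The groups did not overlap. The log2 fold change was -2.33 (SE 0.565, adjusted p = 0.0205). The call was lost at similar folds without knockout library 1 (-2.23, adjusted p = 0.0523), control library 1 (-1.97, adjusted p = 0.0722) or control library 2 (-2.46, adjusted p = 0.0553), and the log2 fold change was -3.01 without knockout library 3. Wnt5a, the best-known ligand of beta-catenin-independent signalling, was at 13.8, 7.84 and 10.8 CPM in knockout and 25.7, 20.9 and 28.7 CPM in control. Every knockout library was below every control library, and the fall was 2.32-fold (log2 fold change -1.22, SE 0.249, adjusted p = 0.0112; adjusted p = 0.0506 without control library 3).

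Wnt4, a ligand required in kidney and female gonad development, had 103, 182 and 326 CPM in knockout libraries 1, 2 and 3 and 5.76, 3.14 and 3.52 CPM in control libraries. Even the lowest knockout library was far above the highest control library. The rise was 48.9-fold (log2 fold change 5.61, SE 0.529, adjusted p = 0.000814). Wnt6 was at 24.9, 34.3 and 103 CPM in knockout and at 0.468, 0.442 and 0.911 CPM in control, where it rested on 10, 9 and 15 counts. Knockout library 3 stood well above the other knockout libraries for this gene. Wnt6 rose 89.9-fold (log2 fold change 6.49, SE 0.734, adjusted p = 0.00147) and 49.7-fold without knockout library 3.

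Wnt10a, which acts in skin, teeth and hair follicles, was already abundant in control. It was at 140.0, 144 and 212 CPM in knockout and 90.3, 99.3 and 93.5 CPM in control. The groups did not overlap, and the rise of 1.75-fold passed the test (log2 fold change 0.81, SE 0.185, adjusted p = 0.0168) but lost the call without control library 1, 2 or 3 (adjusted p = 0.07, 0.0674 and 0.0773). Wnt10b, known for promoting bone formation over fat, had 10.6, 8.23 and 13.4 CPM in knockout, against 2.25, 1.57 and 3.71 CPM in control. This 4.29-fold rise passed (log2 fold change 2.10, SE 0.381, adjusted p = 0.00738).

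The other ligands tested did not pass. Wnt11, known from cell movements in the early embryo, was at 10.7, 7.2 and 16 CPM in knockout and 7.77, 2.46 and 2.92 CPM in control. Knockout library 2 lay below control library 1, so the groups overlapped (log2 fold change 1.36, 95% interval 0.11 to 2.62, adjusted p = 0.0871). DESeq2 called Wnt11 higher (adjusted p = 0.0363), as did edgeR without control library 1 (0.028). Wnt5b, a close relative of Wnt5a, was at 1.2, 1.18 and 0.735 CPM in knockout and 1.22, 0.393 and 1.28 CPM in control (adjusted p = 0.875). Wnt1, Wnt2, Wnt2b and Wnt8b stayed under 1 CPM, Wnt1 and Wnt8b after division of their rows by 11 (as deposited Wnt1 reached 3.3 CPM, in control library 3), and no count was found for Wnt3, Wnt3a, Wnt8a, Wnt9b or Wnt16. A count of 0 allows a level of up to 0.14 to 0.184 CPM, depending on the library (3 counts of its total, counting error only).

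**Figure D2:**
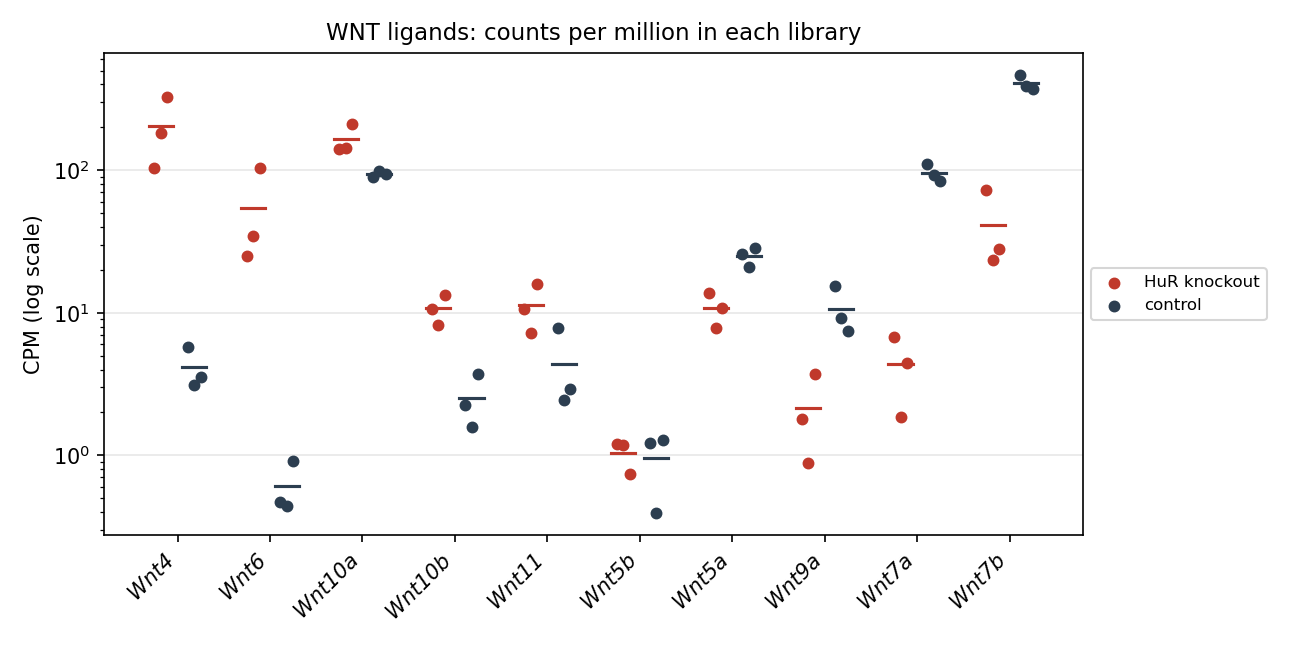
CPM on a log scale (y axis) of the 10 WNT ligands tested, with 1 point for each library and a bar at the group mean; knockout libraries are red and control libraries dark. Wnt4 and Wnt6 lie higher and Wnt7a and Wnt7b lower in all 3 knockout libraries, while the groups overlap for Wnt11 and Wnt5b.

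Counts over all 19 ligand rows summed to 386, 412 and 718 CPM in knockout libraries 1, 2 and 3, against 727, 619.6 and 600.1 CPM in control libraries. Knockout libraries 1 and 2 lay below every control library, and knockout library 3 lay within the control range. Within these ligand reads the make-up differed more than the sum. Wnt7b took 18.8% (95% exact binomial interval 17.9 to 19.7), 5.71% (5.23 to 6.23) and 3.91% (3.57 to 4.28) of them in knockout libraries 1, 2 and 3, against 64.2% (63.4 to 64.9), 62.8% (61.9 to 63.6) and 62.2% (61.2 to 63.1) in control libraries. Wnt4 took 26.8% (25.7 to 27.8), 44.1% (43.1 to 45.2) and 45.4% (44.5 to 46.3) in knockout and at most 0.792% (0.659 to 0.945) in control. The intervals cover counting error only, and a share of reads is not a share of molecules, since transcript length was not used. Each of these shares separated the groups without overlap.

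Both genes needed to make and release WNT ligands were higher in knockout. Wls, the transport protein, had 80.4, 91.9 and 96.3 CPM in knockout, against 38.8, 37.6 and 41.1 CPM in control. The libraries of each group lay close together, and the rise was 2.29-fold (log2 fold change 1.19, SE 0.121, adjusted p = 0.000995). Porcn, the acyltransferase, was at 8.12, 7.84 and 36.6 CPM in knockout and 3.51, 3.68 and 4.25 CPM in control. Its size was set by knockout library 3. The log2 fold change was 2.19 (SE 0.652, adjusted p = 0.0398) with all libraries and 1.07 without knockout library 3 (adjusted p = 0.00512). Porcn lost the call without control library 1, 2 or 3 (adjusted p = 0.123, 0.13 and 0.115) and with limma-voom (0.106).

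Of the 10 Frizzled genes, 9 were tested, and 3 of them rose and none fell by edgeR, or 33.3%, a share near that of all genes. All 9 log2 fold changes were above 0. Counts over the 10 rows summed to 280.0, 399 and 360.1 CPM in knockout and 181, 180.0 and 190.1 CPM in control, without overlap. Fzd1, closely related to Fzd2 and Fzd7, was at 43.4, 87.6 and 146 CPM in knockout and 25.2, 25.7 and 26.7 CPM in control. The knockout libraries spread widely while the control libraries nearly coincided (log2 fold change 1.84, SE 0.411, adjusted p = 0.0156), and Fzd1 missed the test when control library 1, 2 or 3 was left out (adjusted p = 0.0625, 0.0668 and 0.0638). Fzd5, known for its part in the eye and in intestinal Paneth cells, had 72.4, 121 and 46.7 CPM in knockout, against 22.1, 24.1 and 26.6 CPM in control. It rose 3.3-fold (log2 fold change 1.72, SE 0.34, adjusted p = 0.01), with knockout library 3 the lowest of its group, unlike Fzd1.

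Fzd3, known from axon guidance and planar cell polarity, was at 5.88, 8.18 and 7.47 CPM in knockout and 3.51, 2.9 and 3.34 CPM in control. It rose 2.21-fold (adjusted p = 0.0129); without control library 2 or 3 the fold was 2.05 and 2.2 and the call was lost (adjusted p = 0.0698 and 0.0637). Fzd4, the receptor of norrin, was at 5.72, 5.54 and 14.3 CPM in knockout and 3.65, 2.65 and 3.89 CPM in control. The groups did not overlap, but knockout library 3 stood apart and the test was missed (log2 fold change 1.33, 95% interval 0.27 to 2.38, adjusted p = 0.0571). Without knockout library 3 the log2 fold change was 0.73 (adjusted p = 0.0539). DESeq2 called Fzd4 higher (adjusted p = 0.0192), as did edgeR without knockout library 1 (0.0457). Fzd7 was at 26.9, 24.2 and 39.9 CPM in knockout and 19.9, 16.8 and 22.8 CPM in control (adjusted p = 0.0833), again without overlap.

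The remaining Frizzleds had intervals that include no change. Fzd2 was at 56.5, 71.3 and 48.8 CPM in knockout and 50.6, 44.9 and 49.0 CPM in control (log2 fold change 0.29, 95% interval -0.11 to 0.68). Fzd6, which orients hairs in skin, was at 55.5, 66.8 and 40.4 CPM in knockout and 43.0, 52.0 and 44.6 CPM in control (log2 fold change 0.22, 95% interval -0.27 to 0.71). For both genes knockout library 3 was the lowest of its group, and without it both passed (log2 fold changes 0.41 and 0.40, adjusted p = 0.027 and 0.034). Fzd8 was at 8.34, 7.79 and 10.9 CPM in knockout and 8.05, 5.75 and 8.32 CPM in control (adjusted p = 0.395). Fzd9 had 5.29, 6.42 and 5.02 CPM in knockout and 4.07, 4.96 and 4.5 CPM in control (adjusted p = 0.339). Fzd10 stayed under 1 CPM and was not tested.

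Among the other receptors, Ror2 showed the largest difference. Ror2, a tyrosine kinase-like receptor of Wnt5a, was at 16.1, 28.3 and 30.1 CPM in knockout and 5.94, 5.35 and 6.32 CPM in control. It rose 4.23-fold (log2 fold change 2.08, SE 0.274, adjusted p = 0.00239), while its ligand Wnt5a fell. Its relative Ror1 was at 0.545, 0.196 and 0.429 CPM in knockout and 0.983, 0.688 and 1.15 CPM in control. The groups did not overlap, but the difference rested on 4 to 21 counts a library and did not pass (log2 fold change -1.27, 95% interval -2.43 to -0.10, adjusted p = 0.0861). Ryk, an atypical WNT receptor, was at 125, 136 and 127 CPM in knockout and 130.0, 126 and 117 CPM in control, with an interval of -0.21 to 0.31 on the log2 scale (adjusted p = 0.735).

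Lrp5, a co-receptor best known for its effect on bone mass, had 413, 502 and 448 CPM in knockout, against 318, 264 and 284 CPM in control. The groups did not overlap and the rise was 1.57-fold (log2 fold change 0.65, SE 0.138, adjusted p = 0.0125). It missed the test without control library 2 or 3 (adjusted p = 0.0784 and 0.0722). Its partner in function Lrp6 was at 74.1, 94.1 and 119 CPM in knockout and 65.3, 78.6 and 80.0 CPM in control, with overlap (log2 fold change 0.36, 95% interval -0.11 to 0.83, adjusted p = 0.193).

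**Figure D3:**
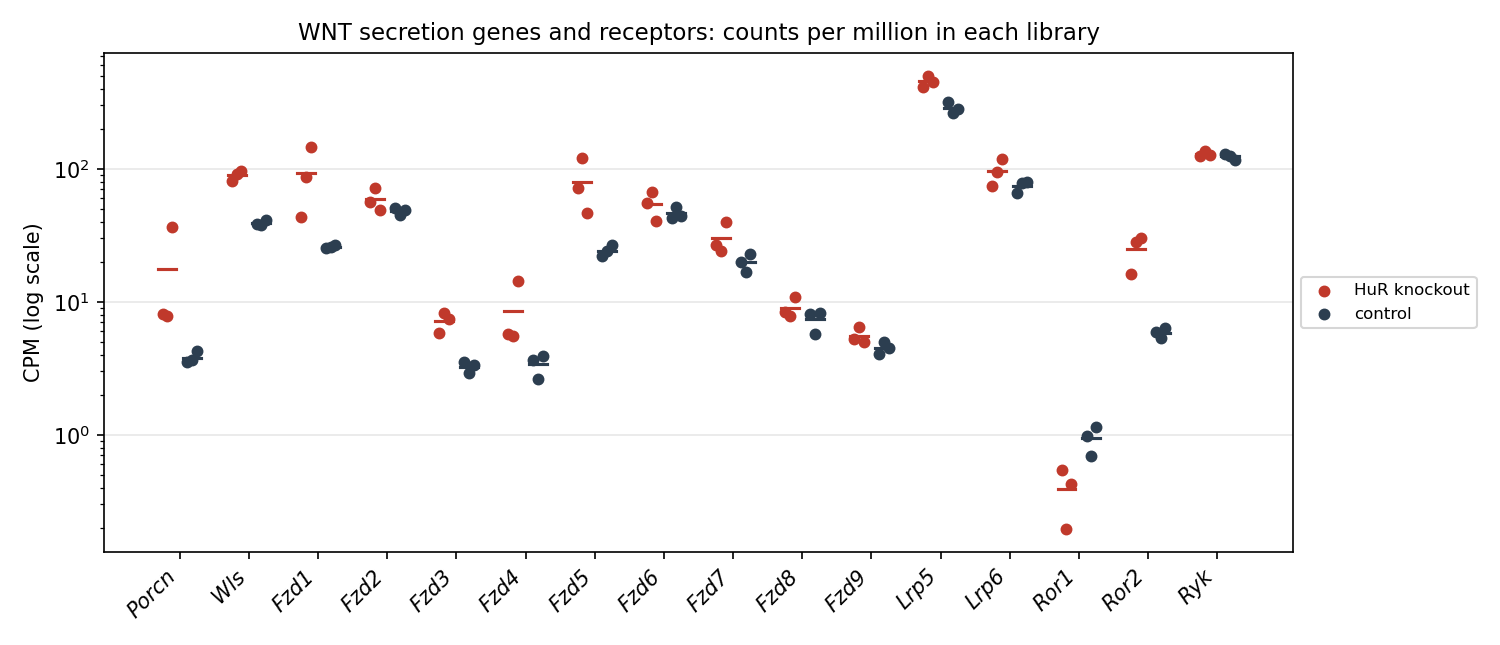
CPM on a log scale (y axis) of Porcn, Wls and 14 receptor genes, with 1 point for each library and a bar at the group mean; knockout libraries are red and control libraries dark. The groups separate clearly for Wls, Fzd5 and Ror2, knockout library 3 sets the high points of Porcn and Fzd4, and the groups overlap for Fzd2, Fzd6, Lrp6 and Ryk.

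Of the 9 secreted inhibitors, Wif1 and Sfrp1 reached 1 CPM in any library. Wif1, WNT inhibitory factor, had 0.381, 15.8 and 52.0 CPM in knockout libraries 1, 2 and 3, while all control libraries held no count of it. The knockout libraries spread over more than an order of magnitude, with 7, 323 and 849 counts, and knockout library 1 had too few for the filter, so the gene was not in the main test. Taking 3 counts summed over the controls as the floor, the knockout mean of Wif1 was at least 441-fold higher. This bound was 157-fold without knockout library 3 and 658-fold without knockout library 1. Without control library 1, 2 or 3 it was 279-fold, 287-fold and 316-fold. The bound is one on the group mean, to which knockout library 1 added little, and the floor covers counting error only. The Wif1 row was one of those divided by 11, and as deposited Wif1 stood at 4.15, 172 and 562 CPM in knockout. Where the gene entered a test, it passed with the values as deposited (adjusted p = 0.0337), with no filter (0.0443), with DESeq2 (9.18e-05) and without knockout library 1 (0.00634). It did not pass without control library 1, 2 or 3 (adjusted p = 0.0912, 0.0943 and 0.0903).

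Sfrp1, a decoy that binds WNT ligands, was at 6.59, 7.89 and 11.3 CPM in knockout and 6.74, 4.22 and 4.92 CPM in control, with overlap (log2 fold change 0.70, 95% interval -0.03 to 1.42, adjusted p = 0.118). The Dkk genes, among them that of the Lrp5 and Lrp6 antagonist Dkk1, were nearly silent. Dkk1 had 0, 19 and 2 counts in knockout and 0, 1 and 2 in control after division by 11, so that 1 knockout library held nearly all of them (10.1 CPM there as deposited). Dkk3 had 5, 3 and 5 counts in knockout and 15, 4 and 7 in control, and Dkk2 and Dkk4 had none. Sfrp2 and Sfrp4 stayed under 1 CPM, Sfrp4 after the same division (at most 2.13 CPM as deposited), and Sfrp5 had no count. Of the R-spondins, Rspo1 had 1, 2 and 11 counts in knockout and 1, 0 and 2 in control, and Rspo3 had 2, 4 and 13 in knockout and 2, 0 and 1 in control. Rspo2 and Rspo4 had no count, so no R-spondin reached 1 CPM in either group.

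The knockout libraries differed among themselves, and their order varied between members. All 3 knockout libraries lay outside the control range for each of the 15 changed members. These members were called on the same libraries, so this separation largely follows from the call. Among all genes tested, called or not, the groups did not overlap for 57.6%, and the share among called genes was not computed. On the scale of log2(CPM + 0.1), knockout library 1 was the nearest to the control mean for 11 of the 15 and the farthest for 0. Knockout library 3 was the farthest for 8 of the 11 members that rose, and knockout library 2 for all 4 that fell. Over all 4392 changed genes, rising and falling together, knockout library 1 was the nearest for 59.9% and knockout library 3 the farthest for 58.7%. Knockout library 1 was thus the nearest most often over all changed genes too. The farthest library was not split by direction there.

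**Figure D4:**
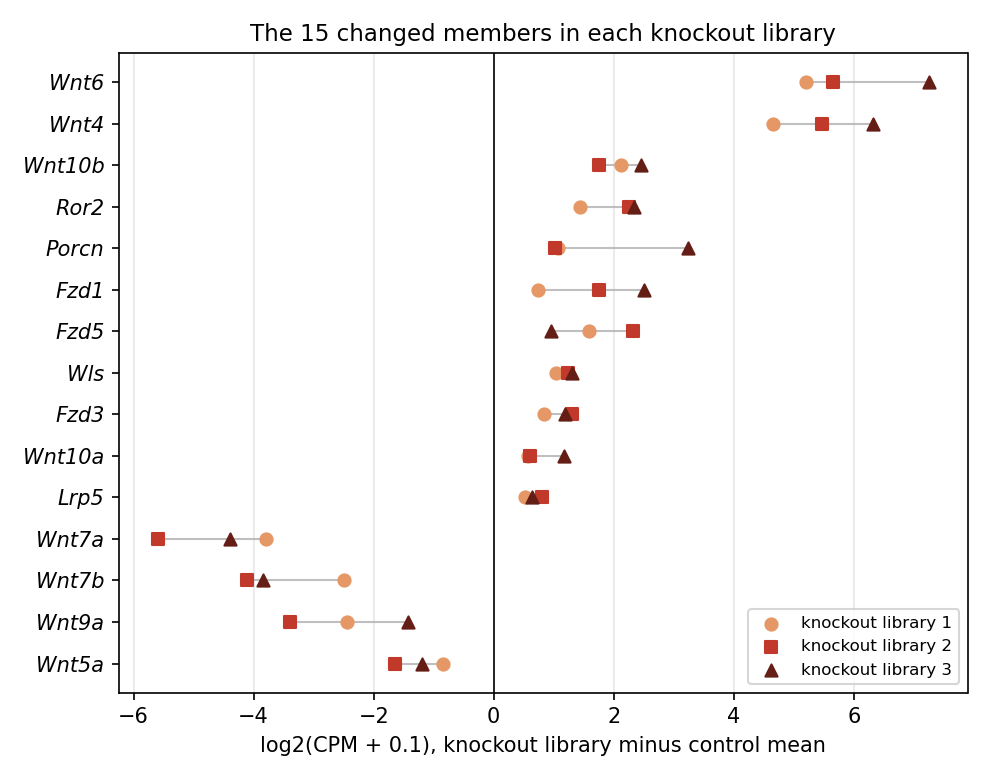
Difference of each knockout library from the control mean in log2(CPM + 0.1) (x axis) for the 15 changed members; circles, squares and triangles are knockout libraries 1, 2 and 3. Knockout library 3 lies farthest out for Wnt6, Wnt4 and Porcn, and knockout library 2 for the 4 members that fell.

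The rest of the pathway was described through 6 lists of other WNT genes, chosen with earlier results of these data known. Their shares are set beside those of all genes as a description, not as a test. Of 111 such genes with a row, 88 were tested. Of those tested, 35 were higher, 16 lower and 37 did not pass, or 58.0% called against 35.7% of all genes. Without control library 2 these were 22 higher and 10 lower, and 8 were lower without control library 1 or 3. Among 18 widely used targets of WNT and beta-catenin that were tested, 10 rose, 5 fell and 3 did not pass, with a median log2 fold change of 1.17, against 0.03 over all genes. Without control library 1, 2 or 3, 6, 5 and 6 rose, and 3 fell without control library 1 or 3. Nkd1 and Ccn5 passed the filter only through knockout.

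Axin2, a feedback inhibitor and the most used readout of beta-catenin signalling, was at 29.6, 57.0 and 48.1 CPM in knockout and 3.74, 2.6 and 3.1 CPM in control (14.2-fold, adjusted p = 0.000535). Nkd1, which restrains Dishevelled, was at 10.0, 10.0 and 11.8 CPM in knockout and at most 0.281 CPM in control (50.2-fold, adjusted p = 0.000268). Notum, a secreted enzyme that removes the lipid from WNT ligands, was at 78.0, 93.9 and 166 CPM in knockout and 6.6, 4.03 and 6.08 CPM in control (20.2-fold, adjusted p = 0.000635). Axin2, Nkd1 and Notum thus stood far above control in all knockout libraries, but not every feedback gene did. Znrf3, on the same target list, was at 18.7, 21.3 and 18.2 CPM in knockout and 29.3, 37.0 and 32.8 CPM in control. Rnf43, also listed, stayed under 1 CPM, was lower in knockout and was not tested. Nkd2, the relative of Nkd1, fell (log2 fold change -0.96, adjusted p = 0.0315 by edgeR). The transcription factor Twist1 rose 2.53-fold (adjusted p = 0.00152), while the Notch ligand gene Jag1 fell 3.13-fold (adjusted p = 0.00403).

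Of 19 extracellular antagonists and binders outside the members, 11 were tested, and 10 rose and 1 fell. Of all genes, 35.7% were called and 20.3% were higher. The median log2 fold change of the list was 1.93. The list is mixed: Reck and Adgra2, which rose, form a co-receptor of Wnt7a and Wnt7b, so the count is not one of antagonists alone. Sostdc1 and Draxin entered only through knockout and Gpc4 only through control. Sostdc1, a secreted antagonist of BMP and WNT ligands, was at 79.1, 109 and 51 CPM in knockout and at most 0.304 CPM in control. Its fitted rise was 619.6-fold (adjusted p = 0.000444), 400.1-fold without control library 2 and 1441-fold without control library 3, on 2, 0 and 5 control counts. The glypican Gpc6 rose 4.22-fold and Igfbp4, an IGF-binding protein that also inhibits WNT signalling, 3.52-fold, while the glypican Gpc4 fell 17.5-fold. Without control library 2, 6 of these genes rose. Of the 5 genes of receptor turnover and R-spondin sensing, 3 were tested, and 2 fell, of which Lgr6 entered only through its control counts. Lgr6, an R-spondin receptor, was at 0.218, 0.049 and 0.306 CPM in knockout and 37.3, 39.0 and 39.7 CPM in control, and Znrf3, a ubiquitin ligase that removes Frizzleds, fell 1.7-fold (adjusted p = 0.0095). The R-spondin receptor Lgr4 was at 19.1, 24.2 and 31.0 CPM in knockout and 18.4, 21.7 and 25.0 CPM in control and did not pass (log2 fold change 0.19, 95% interval -0.34 to 0.72).

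Among 28 tested genes of the destruction complex and cytoplasmic transducers, 8 rose, 4 fell and 16 did not pass, with a median of 0.11; this 42.9% is near the 35.7% of all genes. Dact3, Cxxc5 and Apc2 rose 17.3-fold, 4.71-fold and 9.68-fold, besides Axin2 and Nkd1 which belong to both lists. Without any 1 control library 5 rose, and 1, 2 and 1 fell without control library 1, 2 and 3. Of 14 TCF/LEF factors and nuclear partners tested, 5 rose and none fell by edgeR or DESeq2, and none was lower at an unadjusted p under 0.05 by edgeR; 1 fell without knockout library 3. This 35.7% called equals the share of all genes. The co-repressor gene Tle2 rose 21.3-fold, Bcl9l 2.29-fold, Tcf7l1 2.18-fold and Tle1 2.12-fold. Lef1, a TCF/LEF factor and itself a target, was at 7.63, 8.67 and 11.1 CPM in knockout and 3.23, 1.82 and 4.37 CPM in control (adjusted p = 0.0189; 0.0677 and 0.0532 without control library 1 or 2). Of 21 genes of planar cell polarity and other beta-catenin-independent routes, 7 rose and 5 fell, or 57.1% called, with a median of 0.00. Of these, Prickle2 entered the test only through knockout and Prickle3 only through control. Daam2 and Daam1, related formin genes, moved apart: Daam2 rose 149.6-fold and was at 79.4, 128 and 140.1 CPM in knockout and at most 1.15 CPM in control, while Daam1 fell 3.49-fold. Celsr1, a polarity cadherin, fell 6.37-fold, Prickle2 rose 11-fold and Camk2d rose 2.24-fold. Without any 1 control library 2 genes of this list fell, and 3 fell without knockout library 1.

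**Figure D5:**
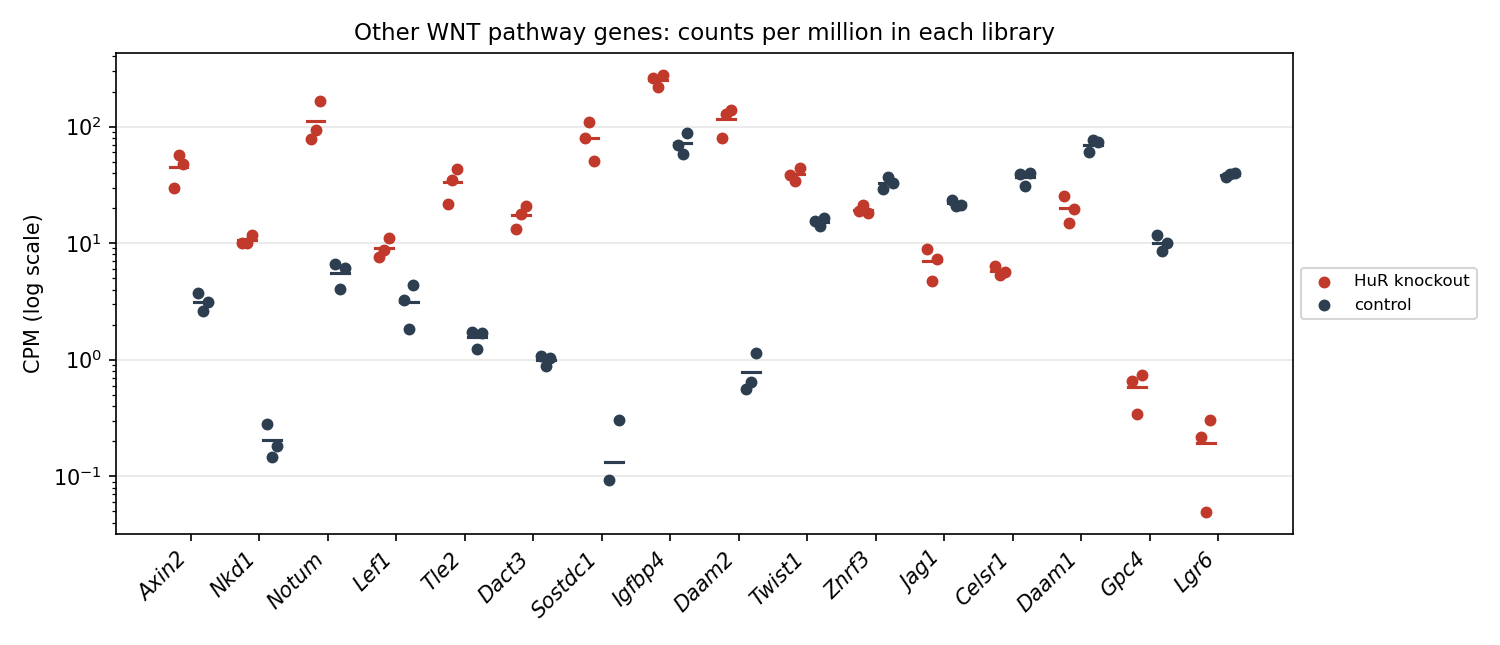
CPM on a log scale (y axis) of 16 other WNT pathway genes, with 1 point for each library and a bar at the group mean; knockout libraries are red and control libraries dark. Sostdc1 was at 0 in control library 2, which a log axis cannot show; the groups do not overlap for any gene drawn, with Axin2, Nkd1 and Notum higher and Lgr6 and Gpc4 lower in knockout.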

How the data were processed

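The authors deposited whole-number counts per gene symbol for 6 libraries; per the submitters' processing notes, featureCounts, STAR 2.7.1a and hg38 are named, their roles not stated. Which annotation and strand setting served is not given in the sources used here. Row symbols are those of mouse; no mouse genome was used here, so positions and sequences are not given, and overlapping, antisense or near-identical genes could not be checked. In the 1704 rows at 0 in control library 1 with a count elsewhere all values were multiples of 11, and these rows were divided by 11; this concerned 5 members, none of which entered the main test.

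Libraries were grouped by title. Knockout was tested against control with the quasi-likelihood test of edgeR 4.0.16 (R 4.3.3), after filterByExpr and TMM scaling, with robust dispersions, with Benjamini-Hochberg adjustment over 12293 genes and a threshold of 0.05. Intervals are 95% and standard errors come from the fold change and its test statistic. Totals after division lay between 16158516 and 21294330 counts; the biological coefficient of variation was 28.0%. The procedure was tested on simulated data. DESeq2 1.42.0, limma-voom (limma 3.58.1), other scaling, filters, the values as deposited, leaving out each library and a replicate block were alternatives. Same-numbered knockout and control libraries deviated together at -0.0487, 0.256 and 0.0219 (Pearson's r across genes) and were not treated as pairs. Members with at least 1 CPM in any library are given per library, and up to 5 other genes per list by smallest p; members and lists were chosen with earlier results of these data known.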

Additional observations from a re-analysis of the deposited data

How the results depend on the processing

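The number of changed genes was 4392 and lay between 2312 and 6021 when 1 library was left out; the changed members higher in knockout (11) lay between 6 and 13 and those lower (4) between 3 and 4, and the other WNT genes between 22 and 38 higher (35) and between 8 and 22 lower (16). The lowest counts of members came without control library 2 or 3, while fits without 1 knockout library, on as many samples, gave 3541 to 6021 changed genes; the cause was not tested. Of the 15 changed members, 8 kept their call in each of the 6 fits without 1 library (Wnt4, Wnt6, Wnt7a, Wnt7b, Wnt10b, Wls, Ror2 and Fzd5) and 7 lost it in at least 1. The values as deposited, the table without the divided rows, other size factors and no filter changed the call of none of the 27 members tested; DESeq2 added Fzd4 and Wnt11, and limma-voom lost Porcn. Signs turned only in genes that did not pass: Wnt5b (-0.29 without control library 2; -0.29 to 0.34 over the fits without 1 library), Ryk (-0.02 without control library 3; -0.02 to 0.08) and Elavl1 (0.01 without knockout library 3; -0.09 to 0.01), as log2 fold changes; the cause was not tested. With the replicate number as a block 3591 genes changed, 11 members were higher and 4 lower, and no member's call changed; among cytoplasmic transducers 5 rose and 2 fell, against 8 and 4. Among counted members, depth limits the 11 under 1 CPM and Ror1, which rested on 4 to 21 counts a library.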

Other observations

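Some genes of the same lists were picked after their values were seen. Reck and Adgra2, which form a co-receptor specific to Wnt7a and Wnt7b in brain vessels, were both higher in knockout while those ligands fell. Adgra2 was at 159, 182 and 223 CPM in knockout and 46.6, 40.2 and 61.4 CPM in control (log2 fold change 1.93, adjusted p = 0.0013 by edgeR), and Reck was at 4.96, 8.77 and 15.7 CPM in knockout and 1.12, 1.28 and 1.52 CPM in control (log2 fold change 2.90, adjusted p = 0.0049).

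Ctnnb1, which encodes beta-catenin, was listed with the cytoplasmic transducers and not with the targets. It was at 549.7, 595 and 454 CPM in knockout and 834, 821 and 825 CPM in control (log2 fold change -0.63, adjusted p = 0.015 by edgeR). Targets did not all move with Axin2. Ccnd1, the gene of cyclin D1, and Myc are often listed as targets but fell: Ccnd1 by a log2 fold change of -0.84 (adjusted p = 0.0132) and Myc by one of -0.57 (adjusted p = 0.0129). The related receptor genes Ephb2 and Ephb3 moved apart: the log2 fold change was 2.55 for Ephb2 (adjusted p = 0.00679) and -1.83 for Ephb3 (adjusted p = 0.0126). Ccn5, a matricellular gene, had 2.72, 9.85 and 58.8 CPM in knockout libraries 1, 2 and 3, while no control library held a count of it; its row, too, was divided by 11, and the knockout libraries stood in the same order as for Wif1.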
